A study of Homo sapiens with 6 samples.

Results

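The genes described here are those of the interferon response and of MHC class I antigen presentation, taken as the rows of the deposited expression table whose gene name is on a list of 54 names. STING1 and TMEM173 name the same gene, so the list holds 53 distinct genes, and 35 of them are among the 10542 genes of the table. By role, the 35 were 10 genes of antigen presentation, 8 of interferon signalling, 2 of viral nucleic acid sensing and 15 antiviral effectors. The 2 sensing genes, termed sensors below, were the RNA sensor IFIH1 and TMEM173, an adaptor. The other 18 were not analysed here: TAP2, STAT3, IRF2, IRF7, IRF9, IFNAR2, IFNGR2, ISG15, IFI16, IFI27, IFI44, IFIT1, IFITM1, MX1, OAS1, OAS2, CGAS and BST2.

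Polyadenylated RNA of DU145, an established human prostate cancer cell line, was sequenced in 3 DU145-TFEB and 3 DU145-vector libraries to learn how TFEB acts on the growth and spread of the cells. DU145-TFEB cells had received a lentivirus that overexpresses TFEB, a transcription factor of lysosomal genes, and DU145-vector cells a blank lentivirus, so both groups carried a virus and both had been selected as stable lines with puromycin, according to the methods. Each value is a gene's read count divided by 1 size factor for its library, termed a normalized count below, and the listed genes held between 13999961 and 16511477 reads per library. TFEB had normalized counts of 6325, 6301 and 6036 in DU145-TFEB and of 127.4, 123.9 and 125 in DU145-vector, with introduced and endogenous reads counted together.

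Each group was 1 line, and nothing in the labels says that its 3 libraries came from separate cultures, so p-values measure only the spread between these libraries, which may be technical. Of 7 genes looked for as markers of DU145, 4 had rows: the epithelial keratins KRT8, KRT18 and KRT19, and VIM, a mesenchymal gene. The summed normalized counts of the 3 keratins were 21628 to 30605 in DU145-TFEB and 36421 to 41780.0 in DU145-vector, and those of all 4 genes were 27129 to 36500 and 45371 to 51250. Of 8 leukocyte, 5 fibroblast and 3 endothelial markers, 0 had a row. In bulk RNA, fewer cells that express a gene and less of its RNA per cell cannot be told apart.

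Interferons bind receptors at the cell surface, and the receptor-bound kinases JAK1, JAK2 and TYK2 then activate STAT factors, which with IRF factors switch on interferon-stimulated genes. Some of these genes encode effectors that block viral entry, translation or replication. Others load peptides onto MHC class I molecules, each a heavy chain such as HLA-B paired with beta-2-microglobulin, for display to cytotoxic T cells, and many tumours lower this display.

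Of the 35 genes, 22 rose and 13 fell in DU145-TFEB against DU145-vector at an adjusted p-value below 0.05 (limma on log2(normalized count + 1), Benjamini-Hochberg adjustment over all listed genes). Over all listed genes, 47.6% were higher and 52.4% lower by the same rule, because the authors listed only genes with an adjusted p-value of their own below 0.05. Passing the test is thus a property of the table, and direction and size are what vary among its genes. For 21 genes every DU145-TFEB library lay above every DU145-vector library, for 13 every one lay below, and only IFITM2 overlapped. Over all listed genes these shares were 47.3% and 52.0%. With 3 libraries against 3, an exact two-sided permutation test of a single gene cannot go below p = 0.1.

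At the fold-change cutoff of the study's methods, an absolute log2 fold change above 1.5, 1 member was higher (IFITM3) and 3 were lower (JAK2, IFIT3 and IFIT2). Over all listed genes 2.54% were higher and 16.5% lower at this cutoff. Without DU145-TFEB replicate 3 the count of lower members was 5, as IFNAR1 and ERAP2 joined, and without DU145-TFEB replicate 2 it was 2. At a cutoff of 1, 6 members were higher, against 8.41% of the listed genes, and 7 were lower, against 31.1%.

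The median log2 fold change was 0.83 for antigen presentation (8 higher, 2 lower), 0.84 for the 2 sensors (both higher), 0.27 for the antiviral genes (8 higher, 7 lower) and -0.21 for signalling (4 higher, 4 lower), whose median turned to 0.031 with median-of-ratios size factors and to 0.021 with quantile normalization. The median of all listed genes was -0.36, so the antigen presentation median lay 1.18 above it, the antiviral median 0.62 above it and the signalling median 0.15 above it. This centre depends on scaling: it was -0.12 with median-of-ratios size factors and -0.03 with quantile normalization, shifts of 0.24 and 0.32. Quantile normalization did not move all members alike, as 29 had a higher log2 value under it and 6 (HLA-B, HLA-C, HLA-E, TAPBP, B2M and ADAR) a lower one, and the median of antigen presentation was then 0.77. The same 22 and 13 members were higher and lower under each of 4 other scalings of the libraries. The medians of the roles are descriptions and were not tested. They cover only genes with a row: 10 of 11 antigen presentation names, 15 of 24 antiviral names and 8 of 14 signalling names. For the sensors a row was found for 2 of 5 names, with STING1 and TMEM173 counted as separate names. The roles thus lost unequal shares of their genes to the authors' selection.

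**Figure D1:**
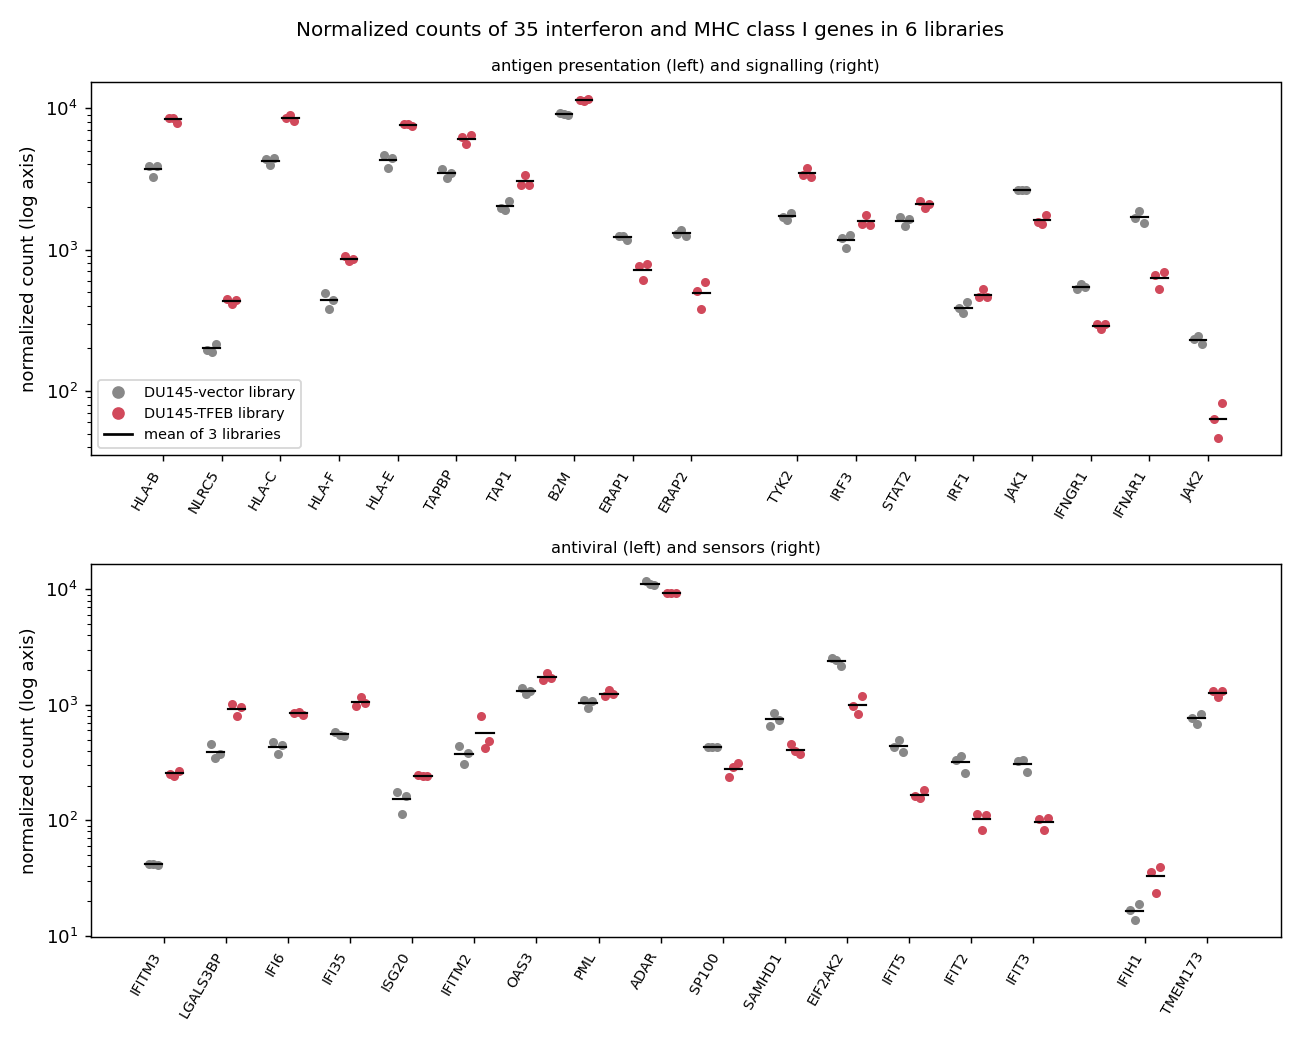
Normalized counts on a log axis for the 35 members, grouped by role, with 1 point per library (grey DU145-vector, red DU145-TFEB) and a line at the mean of 3. The red and grey points are apart for every gene but IFITM2, where the lowest red point (420.4) lies below the highest grey point (439).

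Fold changes in this table followed the base composition of the transcripts. Over 10537 listed genes, Spearman's rho between log2 fold change and the GC content of the longest annotated transcript was 0.74, and over the 35 members it was 0.82, with all genes sharing the same 6 libraries. The higher members had a GC content of 40.6% to 62.7% with a median of 57.2%, and the lower members of 37.4% to 49.3% with a median of 42.3%. After the trend against GC content and gene length was removed from each library, rho over the members was 0.37, 6 members were higher, 13 were lower and 16 did not pass the adjusted p-value of 0.05. Over all genes 15.6% were then higher and 53.7% lower. Past a log2 fold change of 1.5, 1 member was then higher (1.43% of all genes) and 0 were lower (4.26%), and past 1, 3 were higher (3.67%) and 2 lower (12.1%). The part of GC content in these differences cannot be told apart from the groups, and the value without the trend is given beside each member below.

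Without the trend, the medians of the roles were 0.11 for antigen presentation, 0.67 for the sensors, -0.11 for the antiviral genes and -0.38 for signalling, against -0.30 for all genes. The antigen presentation, antiviral and signalling medians thus differed from that of all genes by 0.415, 0.19 and -0.077. The 6 members that were higher were HLA-B, NLRC5, B2M, IFITM3, IFI6 and IFIH1. The 13 lower ones were TAP1, ERAP2, IRF3, JAK1, IFNGR1, IFNAR1, JAK2, ADAR, SAMHD1, EIF2AK2, IFIT5, IFIT2 and IFIT3. TAP1 and IRF3 passed the test in both cases but with opposite signs. Higher and lower here are against 0, which is not the centre of the values without the trend. Among the lower members, ADAR (-0.16), EIF2AK2 (-0.23), TAP1 (-0.26), IFNGR1 (-0.28) and SAMHD1 (-0.30) lay near or above the median of all genes. The rest lay below it.

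**Figure D2:**
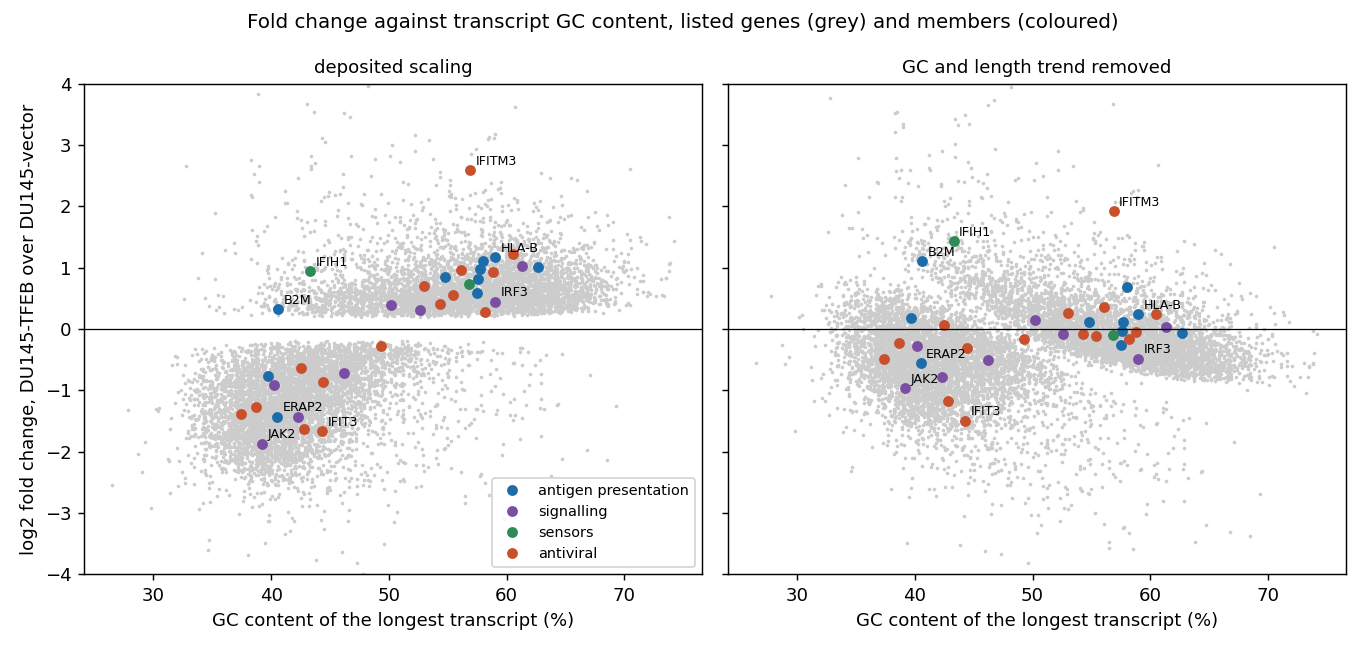
Log2 fold change of DU145-TFEB over DU145-vector against the GC content (%) of the longest transcript, with listed genes in grey and members coloured by role, before (left) and after (right) the GC and length trend was removed; 5 grey genes on the left and 8 on the right lie beyond the axis. On the left the members rise with GC content (rho 0.82), and B2M and IFIH1 stand above other members of like GC content, while on the right most members of high GC content lie near 0.

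The promoters of several members hold the letters that interferon-activated factors are known to bind. The 250 bases before the gene start (RefSeq, GRCh38.p14) were found for 28 of the 35 members and searched on both strands for GAAANNGAAA, the core of the interferon-stimulated response element. It was present in 13 of 28 members (46.4%), against 3.71% of 27305 genes with a promoter in the table and 3.07% of the listed genes among them. Of the 16 higher members with a promoter 10 held it (HLA-F, TAPBP, TAP1, B2M, IFITM3, LGALS3BP, IFI6, ISG20, OAS3 and IFIH1), and of the 12 lower members 3 did (ERAP2, IFIT5 and IFIT3). The share among higher and among lower listed genes was not computed, so the split of the members by direction has no background beside it. IFIT2 was the lower member without a promoter. The list was made of interferon response genes, so a high share of this core may come with the choice of genes. No signalling gene with a promoter held the core, whether higher (TYK2, STAT2 and IRF1) or lower (JAK1, JAK2, IFNAR1 and IFNGR1). The windows below are shown because genes that changed in opposite directions, IFITM3 and IFIT3 among them, held the same core. Each has 60 bases, 5′ to 3′ on the gene's strand, with 1 match in capitals (TTTCNNTTTC where it is on the other strand).
IFITM3, chr11:320861-320920, minus strand: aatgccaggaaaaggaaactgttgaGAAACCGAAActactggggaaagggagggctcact
IFI6, chr1:27672273-27672332, minus strand: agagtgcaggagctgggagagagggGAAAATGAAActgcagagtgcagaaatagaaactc
IFIH1, chr2:162318685-162318744, minus strand: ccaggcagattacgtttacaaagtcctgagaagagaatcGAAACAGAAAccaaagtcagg
B2M, chr15:44711354-44711413, plus strand: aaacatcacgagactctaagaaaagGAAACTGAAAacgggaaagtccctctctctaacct
TAP1, chr6:32853798-32853857, minus strand: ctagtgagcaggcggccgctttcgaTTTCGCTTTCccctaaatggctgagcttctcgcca
ERAP2, chr5:96876440-96876499, plus strand: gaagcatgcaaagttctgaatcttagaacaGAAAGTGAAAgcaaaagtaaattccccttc
IFIT3, chr10:89332453-89332512, plus strand: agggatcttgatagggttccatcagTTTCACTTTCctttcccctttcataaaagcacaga
IFIT5, chr10:89414498-89414557, plus strand: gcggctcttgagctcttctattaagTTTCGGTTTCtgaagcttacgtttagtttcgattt

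IFI6 and IFIH1 held 3 matches each, IFITM3, B2M, TAP1 and IFIT5 held 2, and IFIT3 held 4 over its 2 annotated promoters. A match is a run of letters and not a measured binding site. TTCNNNGAA, the core of the gamma-activated site that STAT dimers bind, was found in TAP1, IFI35 and IRF1, or 10.7% of the members against 8.09% of all genes and 7.48% of the listed genes. CACGTG, the core of the element through which TFEB is known to bind lysosomal promoters, was found in ISG20, ADAR, SP100 and EIF2AK2, or 14.3% against 7.73% of all genes and 11.3% of the 7619 listed genes with a promoter, a share near that of the members. ISG20 was the only member with 2 of these motifs, and their letters did not overlap.

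Antigen presentation rose at the heavy chains, the peptide transporter and its partner, and fell at the trimming enzymes. Without the GC and length trend most of these differences were small, and HLA-C, TAPBP, TAP1 and ERAP1 changed sign. Without the trend, every antigen presentation gene but ERAP2 (-0.56) lay above the median of all genes there, -0.30, with TAP1 close to it. HLA-B (ENSG00000234745, chr6:31269491-31357188), a classical class I heavy chain, had normalized counts of 8529, 8584 and 7904 in DU145-TFEB and of 3926, 3282 and 3905 in DU145-vector. All DU145-TFEB libraries were above all DU145-vector libraries, and HLA-B rose 2.25-fold (log2 1.17, SE 0.084, adjusted p = 4.19e-06), or by 0.24 on the log2 scale without the trend (adjusted p = 0.00381). HLA-C (ENSG00000204525, chr6:31268749-31272130), another classical heavy chain, had 8504, 8975 and 8166 against 4364, 3949 and 4427. The groups were again apart and HLA-C rose 2.01-fold (log2 1.01, SE 0.072, adjusted p = 4.1e-06), but its log2 value was -0.07 without the trend (adjusted p = 0.298).

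NLRC5 (ENSG00000140853, chr16:56989485-57083531), the transactivator of class I genes, had normalized counts of 450.4, 412 and 439 in DU145-TFEB and of 196, 188 and 216 in DU145-vector. It rose 2.17-fold without overlap (log2 1.11, SE 0.11, adjusted p = 1.5e-05), and its log2 value without the trend was 0.68 (adjusted p = 0.000103). The nonclassical heavy chains HLA-F and HLA-E, the latter a ligand of natural killer cell receptors, rose 1.96-fold and 1.79-fold, with 0.12 and 0.11 on the log2 scale without the trend, where neither passed. TAPBP, or tapasin, which holds class I molecules at the transporter, rose 1.76-fold, with a log2 value of -0.04 without the trend (adjusted p = 0.749). TAP1, a subunit of the peptide transporter, rose 1.5-fold, whereas without the trend it was below 0, with a log2 value of -0.26 (adjusted p = 0.00223). That value was near the median of all genes without the trend, -0.30.

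B2M (ENSG00000166710, chr15:44711487-44718877), the light chain of every class I molecule, had 11369, 11235 and 11561 normalized counts in DU145-TFEB and 9316, 9160.0 and 8898 in DU145-vector. The groups did not overlap, but the rise was the smallest of the 8 antigen presentation genes that rose, at 1.25-fold (log2 0.32, SE 0.059, adjusted p = 0.000664). B2M has the lowest GC content of these 8 genes, 40.6%, and without the trend its rise was the largest of the role, with a log2 value of 1.11 (adjusted p = 1.38e-07). Which of HLA-B and B2M rose more therefore depended on whether the trend was removed.

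Per kilobase of gene length, HLA-C was at 1694, B2M at 1501, HLA-E at 1437 and HLA-B at 1214 normalized counts on average in DU145-vector. In DU145-TFEB HLA-C was at 3410.0, HLA-B at 2733, HLA-E at 2566 and B2M at 1873. The ratio of HLA-B to B2M per kilobase, a pair chosen after its values were seen, does not depend on library scaling. In DU145-TFEB this ratio was 1.5, 1.52 and 1.36, and in DU145-vector 0.840, 0.714 and 0.874. On this scale HLA-B was above B2M in all DU145-TFEB libraries and below it in all DU145-vector libraries. The scale uses the deposited gene lengths, 3051 bases for HLA-B and 6079 for B2M. These may differ from the lengths of the transcripts made in these cells, so the order of genes per kilobase depends on them. Before division by length, HLA-B was below B2M in all 6 libraries. The difference of the log2 ratios was 0.86, and -0.87 without the trend.

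ERAP1 and ERAP2, aminopeptidases of the endoplasmic reticulum that trim peptides to the length class I molecules hold, fell under the deposited scaling, ERAP1 not without the trend. ERAP2 (ENSG00000164308, chr5:96875939-96919716) had 507, 378 and 589 normalized counts in DU145-TFEB and 1289, 1385 and 1238 in DU145-vector. It was 2.65-fold lower (log2 -1.43, SE 0.15, adjusted p = 1.97e-05), and stayed lower without the trend at -0.56 (adjusted p = 0.000297). ERAP1 (ENSG00000164307, chr5:96760810-96808100) had 761, 609 and 788 against 1253, 1257 and 1163. It was 1.70-fold lower (log2 -0.78, SE 0.11, adjusted p = 0.000116), with a log2 value of 0.17 without the trend (adjusted p = 0.0508).

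Class I heavy chains are alike in sequence, and reads that fit several of them may have been split between them. The summed normalized counts of HLA-B, HLA-C, HLA-E and HLA-F were 25639, 26131 and 24385 in DU145-TFEB and 13439, 11358 and 13195 in DU145-vector, a log2 difference of 1.01. Whether counting used strand is not given. On the other strand, AL671883.2 shares 17.8% of the exon bases of HLA-B and PSMB8-AS1 9.5% of those of TAP1. AL645939.1, HLA-F-AS1 and RPL23AP1, also on the other strand, share 16.1%, 12.3% and 5.9% of those of HLA-F.

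Among the signalling genes, the 4 receptor chains and Janus kinases other than TYK2 fell, and TYK2 and the STAT and IRF factors with a row rose, although without the trend none of these rises passed and IRF3 was lower. IFNAR1 (ENSG00000142166, chr21:33324477-33359862), a chain of the type I interferon receptor, had normalized counts of 662, 528 and 697 in DU145-TFEB and of 1668, 1882 and 1545 in DU145-vector. It was 2.70-fold lower without overlap (log2 -1.44, SE 0.12, adjusted p = 7.08e-06), and -0.79 without the trend (adjusted p = 1.36e-05). IFNGR1 (ENSG00000027697, chr6:137197484-137219449), the ligand-binding chain of the interferon gamma receptor, had 297, 277 and 298 against 523, 569 and 547. It was 1.88-fold lower (log2 -0.91, SE 0.096, adjusted p = 2.23e-05), and -0.28 without the trend (adjusted p = 0.0151), near the median of all genes there (-0.30).

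JAK2 (ENSG00000096968, chr9:4984390-5128183), which serves the interferon gamma receptor, had 63.1, 46.4 and 82 normalized counts in DU145-TFEB and 231, 247 and 214 in DU145-vector. Its highest DU145-TFEB library was far below its lowest DU145-vector library, and it had the largest fall of the 35 members, 3.61-fold (log2 -1.87, SE 0.21, adjusted p = 2.74e-05). Without the trend its log2 value was -0.97 (adjusted p = 0.000264), and IFIT3 and IFIT2 then had larger falls. JAK1, the kinase shared by both receptor types, was 1.65-fold lower, with log2 values of -0.72 and, without the trend, -0.51 (adjusted p = 5.48e-05).

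TYK2 (ENSG00000105397, chr19:10350529-10380676), the kinase bound to IFNAR1, had 3389, 3790 and 3279 normalized counts in DU145-TFEB and 1708, 1631 and 1806 in DU145-vector. It was 2.03-fold higher without overlap (log2 1.02, SE 0.079, adjusted p = 5.49e-06), and 0.04 without the trend (adjusted p = 0.579). IFNAR1 and its kinase TYK2 thus had log2 fold changes of opposite sign before the trend was removed. Per kilobase, TYK2 was at 515 and JAK2 at 10.3 normalized counts in DU145-TFEB, and at 253 and 37.4 in DU145-vector.

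STAT2 (ENSG00000170581, chr12:56341597-56360155), a subunit of the factor that type I interferon activates, had normalized counts of 2213, 1983 and 2093 in DU145-TFEB and of 1699.7, 1475 and 1634 in DU145-vector. The groups did not overlap and STAT2 was 1.31-fold higher (log2 0.39, SE 0.081, adjusted p = 0.00136), with 0.14 on the log2 scale without the trend (adjusted p = 0.124). IRF3 (ENSG00000126456, chr19:49659569-49665875), which sensors of viral nucleic acid activate, had 1515, 1747 and 1483 against 1212, 1025 and 1259. It was 1.36-fold higher (log2 0.44, SE 0.10, adjusted p = 0.00238), but lower without the trend, with a log2 value of -0.48 (adjusted p = 4.76e-05). IRF1, itself an interferon-induced factor, was 1.23-fold higher (adjusted p = 0.0204), with a log2 value of -0.09 without the trend. BCL2L12 shares 19.3% of the exon bases of IRF3 on the other strand and C5orf56 22.0% of those of IRF1, and without DU145-TFEB replicate 2, DU145-vector replicate 1 or DU145-vector replicate 2 IRF1 did not pass (adjusted p = 0.0555, 0.0537 and 0.0621).

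Both sensors with a row were higher, and TMEM173 was not so without the trend. IFIH1 (ENSG00000115267, chr2:162267079-162318703), or MDA5, which detects long double-stranded RNA, was the least abundant member per kilobase, with 35.8, 23.7 and 39.5 normalized counts in DU145-TFEB and 16.7, 13.7 and 19 in DU145-vector. It was 2.01-fold higher without overlap (log2 0.94, SE 0.28, adjusted p = 0.00824), and its log2 value was 1.43 without the trend (adjusted p = 0.00085). TMEM173 (ENSG00000184584, chr5:139475534-139482935), or STING, the adaptor of cytosolic DNA sensing, had 1309, 1165 and 1329 against 768, 687 and 831. It was 1.66-fold higher without overlap (log2 0.73, SE 0.097, adjusted p = 8.34e-05), with a log2 value of -0.09 without the trend (adjusted p = 0.438).

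The antiviral genes divided evenly. IFITM3, LGALS3BP, IFI6, IFI35, ISG20, IFITM2, OAS3 and PML were higher, and ADAR, SP100, SAMHD1, EIF2AK2, IFIT5, IFIT2 and IFIT3 lower, while without the trend only IFITM3 and IFI6 passed as higher and SP100 alone of the lower genes did not pass.

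IFITM3 (ENSG00000142089, chr11:319669-327537), a membrane protein that hinders viral entry from endosomes, had 254, 243 and 269 normalized counts in DU145-TFEB and 42.1, 41.9 and 41 in DU145-vector. The groups were far apart, and its 6.12-fold rise was the largest of the 35 members (log2 2.58, SE 0.14, adjusted p = 2.3e-06), as it was without the trend at 1.92 (adjusted p = 1.46e-06). Its paralog IFITM2 had 794, 420.4 and 485 against 439, 305 and 380.0, given because it was the only member whose groups overlapped. IFITM2 was 1.51-fold higher (log2 0.56, SE 0.23, adjusted p = 0.0352), but it did not pass without DU145-TFEB replicate 1 (log2 0.28, adjusted p = 0.14), DU145-vector replicate 2 (log2 0.42, adjusted p = 0.15) or DU145-vector replicate 3 (log2 0.57, adjusted p = 0.0708), and lay at -0.11 without the trend. The summed IFITM2 and IFITM3 counts, which do not depend on how alike reads were split between them, were 1048, 663 and 754 against 481, 347 and 421, 1.97-fold higher. The gene AC136475.5 shares 21.3% of the exon bases of IFITM3 on the other strand, and IFITM1 shares 22.7% of those of IFITM2.

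LGALS3BP (ENSG00000108679, chr17:78971238-78980109), a secreted galectin-binding glycoprotein, had 1008, 797 and 953 normalized counts in DU145-TFEB and 457, 348 and 377 in DU145-vector. It rose 2.33-fold without overlap (log2 1.22, SE 0.13, adjusted p = 2.25e-05), and its log2 value without the trend was 0.24 (adjusted p = 0.136). IFI6 (ENSG00000126709, chr1:27666061-27672218), an interferon-induced membrane protein, had 846, 864 and 820.3 against 476, 378 and 448. It rose 1.94-fold without overlap (log2 0.96, SE 0.10, adjusted p = 2.6e-05), and by 0.36 on the log2 scale without the trend (adjusted p = 0.00241). IFI35, ISG20 (an exonuclease), OAS3 (a synthetase of the messenger that activates RNase L) and PML (the scaffold of PML nuclear bodies) were 1.90-fold, 1.60-fold, 1.32-fold and 1.2-fold higher, with log2 values of -0.05, 0.25, -0.08 and -0.17 without the trend, none of which passed.

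The IFIT proteins, which bind viral RNA and restrict its translation, had 3 genes with a row, neighbours on chromosome 10, and all 3 fell with and without the trend. IFIT3 (ENSG00000119917, chr10:89327894-89340971) had 102, 81.9 and 105 normalized counts in DU145-TFEB and 329, 329.7 and 263 in DU145-vector. It was 3.19-fold lower (log2 -1.67, SE 0.16, adjusted p = 1.17e-05), and -1.50 without the trend (adjusted p = 5.9e-06), the largest fall of the members there. IFIT2 (ENSG00000119922, chr10:89283694-89309276) had 113, 81.9 and 111 against 335, 361 and 256. The groups were apart in both genes, and IFIT2 was 3.12-fold lower (log2 -1.63, SE 0.18, adjusted p = 2.89e-05), with -1.17 without the trend (adjusted p = 6.39e-05). IFIT5 (ENSG00000152778, chr10:89414586-89421001) had 162, 157 and 182 against 427, 493 and 393. It was 2.62-fold lower without overlap (log2 -1.38, SE 0.13, adjusted p = 1.07e-05), and -0.50 without the trend (adjusted p = 0.00101). Summed over the 3 genes, the counts were 377, 321 and 398 in DU145-TFEB and 1092, 1183 and 912 in DU145-vector, 2.91-fold lower.

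EIF2AK2, or PKR, a kinase that halts translation on double-stranded RNA, was 2.39-fold lower, with log2 values of -1.27 and, without the trend, -0.23 (adjusted p = 0.0187). SAMHD1, which depletes the nucleotides that reverse transcription needs, was 1.83-fold lower, with -0.87 and -0.30 (adjusted p = 0.0338). SP100, a component of PML nuclear bodies, was 1.55-fold lower, with -0.64 and 0.07 (adjusted p = 0.656). ADAR, the adenosine deaminase that edits double-stranded RNA, was 1.21-fold lower, with -0.28 and -0.16 (adjusted p = 0.0139). Without the trend, the values of EIF2AK2, SAMHD1 and ADAR were near or above the median of all genes, -0.30. ADAR was at -0.04 with median-of-ratios size factors (adjusted p = 0.618), and SP100 at -0.18 with quantile normalization (adjusted p = 0.191), and neither passed there.

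**Figure D3:**
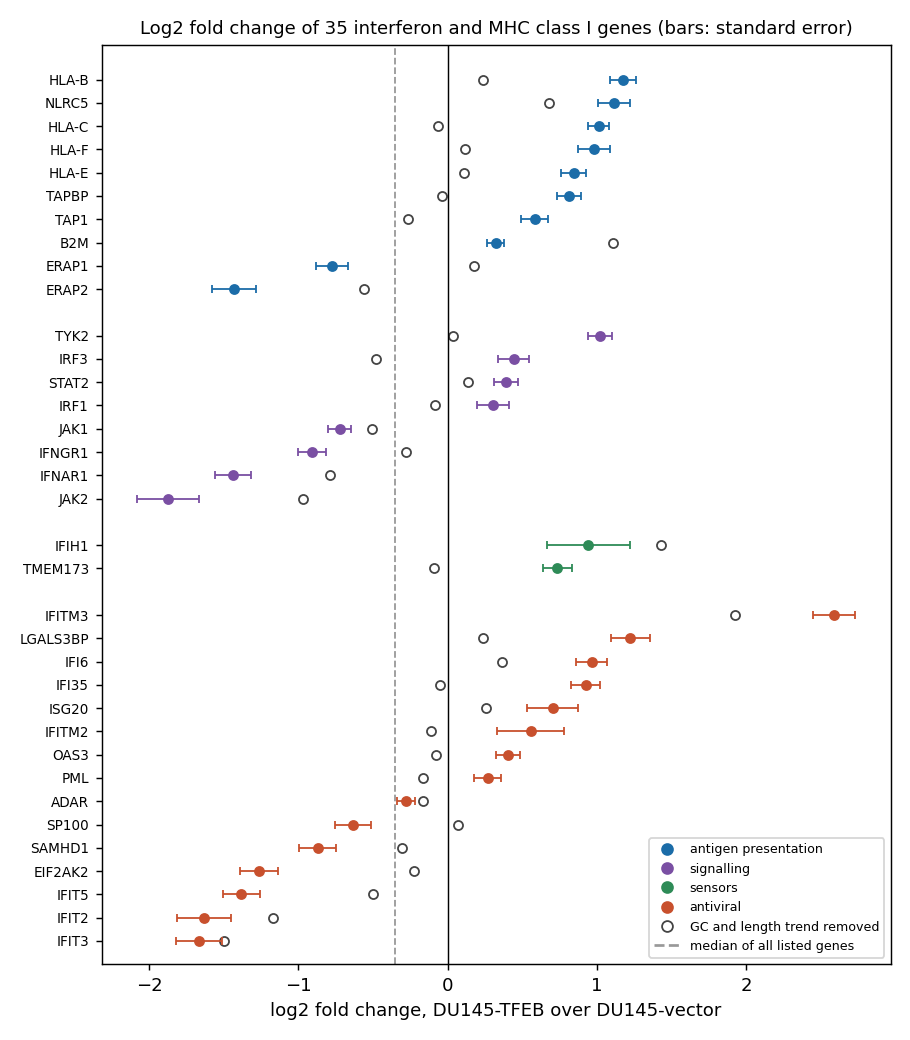
Log2 fold change of DU145-TFEB over DU145-vector with its standard error (filled points, coloured by role), the value with the GC and length trend removed (open points) and the median of all listed genes (dashed line at -0.36). IFITM3 lies farthest to the right and JAK2 farthest to the left under the deposited scaling. Open points of the HLA heavy chains, TAPBP and TYK2 lie close to 0, while those of B2M and IFIH1 lie farther right than their filled points.

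A wider list of 77 other interferon and antigen presentation genes had 47 with a row, of which 23 rose and 24 fell, close to the 47.6% and 52.4% of all listed genes, and their log2 fold changes had a median of -0.42. At an absolute log2 fold change above 1.5, 2 were higher (2.54% of all listed genes) and 5 lower (16.5%). Without the trend 10 were higher, 19 lower and 18 did not pass, against 15.6% higher and 53.7% lower over all genes. Highest were DHX58, a regulator of the RNA sensors, at 4.05-fold (log2 2.03), GBP1, an interferon-induced GTPase, at 2.87-fold (1.52), CALR, the chaperone calreticulin of newly made class I molecules, at 2.80-fold (1.48), and UBA7, the enzyme that activates ISG15, at 2.49-fold (1.24). Their log2 values without the trend were 1.14, 2.04, 0.80 and 0.35, of which that of UBA7 did not pass (adjusted p = 0.29). CALR had 24224, 24420 and 22921 normalized counts in DU145-TFEB and 8648, 8473 and 8476 in DU145-vector, and it was a gene the study followed up from these libraries.

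Lowest by log2(normalized count + 1) were DDX58, or RIG-I, the sensor of viral RNA ends, at 4.32-fold lower (log2 -2.07), PARP14, an ADP-ribosyltransferase, at 3.91-fold (-2.01), PTPN11, the phosphatase SHP2, at 3.11-fold (-1.66), and PIAS1, an inhibitor of STAT factors, at 3.09-fold (-1.64). Their log2 values without the trend were -1.38, -1.24, -0.97 and -0.75, and each passed. Of the 3 related RNA sensor genes, IFIH1 and DHX58 were thus higher and DDX58 lower, both before and after the trend was removed. DDX58 had 32.6, 26.4 and 33.2 normalized counts in DU145-TFEB and 143, 149 and 106 in DU145-vector, and DHX58 had 53.7, 68.2 and 61.3 against 23.5, 10.7 and 11.

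**Figure D4:**
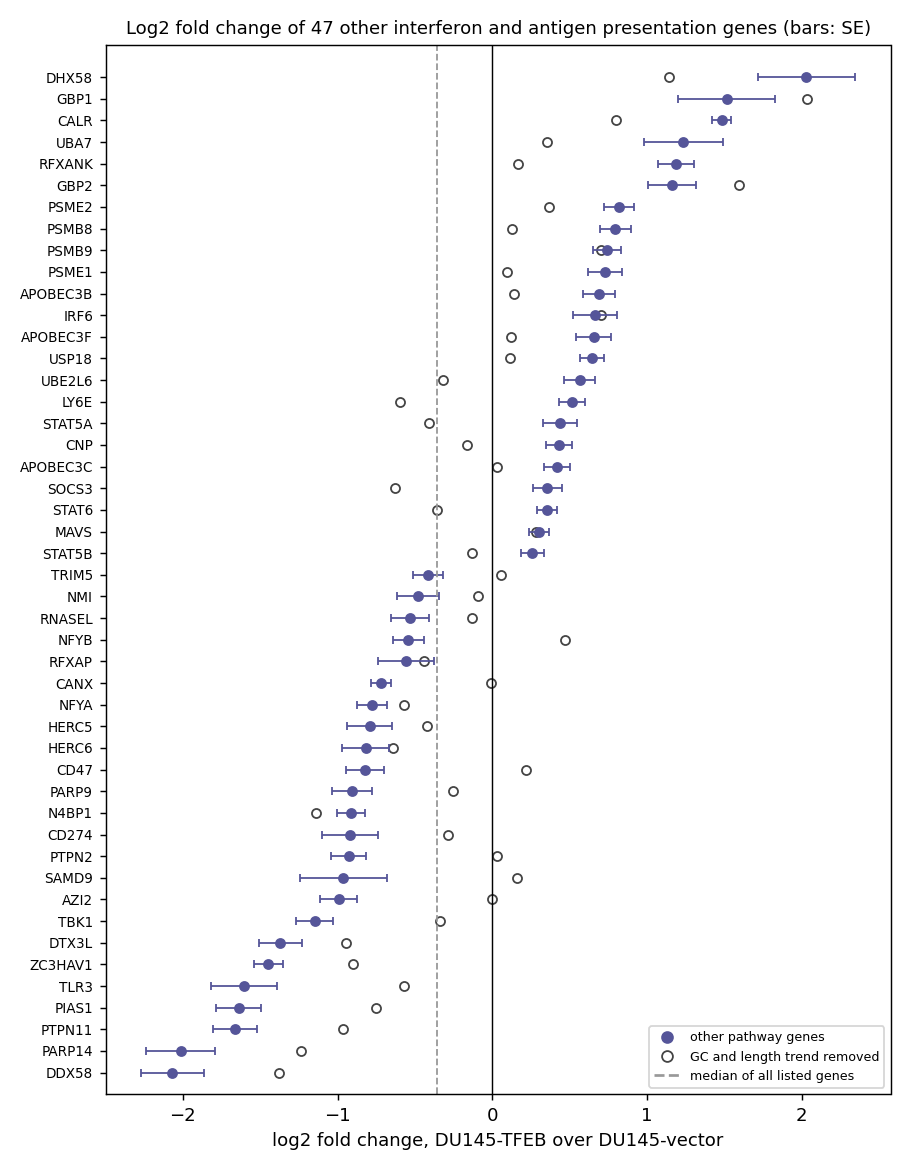
Log2 fold change of DU145-TFEB over DU145-vector with its standard error for the 47 other genes with a row (filled points), the value with the GC and length trend removed (open points) and the median of all listed genes (dashed line). DHX58 and GBP1 lie above 1.5 and DDX58, PARP14, PTPN11, PIAS1 and TLR3 below -1.5 before the trend is removed.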

How the data were processed

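Libraries were made with the NEBNext Ultra kit, and the labels name CASAVA 1.8, HISAT2 2.1.0, GRCh38 and edgeR, while the methods of the study name DESeq2 for the comparison. The counting program and its strand setting are not given in the sources used here. The authors deposited 1 table with a normalized signal, each gene's read count divided by 1 size factor per library (0.9504 to 1.099). In every library 100.0% of the values were whole reads to within 0.01 reads. The deposited log2 fold changes, p-values and adjusted p-values hold the authors' own comparison and were not used, except to check that all 10542 adjusted p-values were below 0.05. The genes were thus selected on the same libraries, and read totals cover listed genes only. Positions equalled GENCODE 29 for 10542 genes.

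Log2(normalized count + 1) was tested with limma 3.58.1 (mean-variance trend, no block, R 4.3.3) over all 6 libraries, with Benjamini-Hochberg adjustment over the 10542 genes. Libraries were grouped by their labels. A filter for a mean of at least 1 removed no member, and each member had at least 14 reads in every library. For the trend, each gene's deviation from its mean log2 value over the 6 libraries was taken. The deviations were fitted by loess (span 0.5) against GC content and gene length within each library, for 10537 genes. The fit was subtracted and its mean in that library added back, so a shift of a whole library stayed in the values. Libraries of a group differed by more than sampling noise (chi-square per gene 2.97 to 27.2) and each counted as a replicate. The scripts were tested on simulated data.

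The members and all lists were chosen with earlier results of these data known. Every member is named, with values per library for the 3 highest and 3 lowest of a role (all in roles of 6 or fewer), and up to 4 highest and 4 lowest other pathway genes. Of the other pathway list, 2 genes are not reported here. Alternatives were other pseudocounts, filters, scalings, cutoffs, edgeR 4.0.16 and DESeq2 1.42.0 on the recovered reads, the replicate block, the trend removed and each library left out. Sums of alike genes were added after seeing the data. Promoters were read from RefSeq, matched by symbol.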

Additional observations from a re-analysis of the deposited data

How the results depend on the processing

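The 35 members kept their direction under each alternative other than removal of the GC and length trend, which reversed 12: HLA-C (-0.066), TAPBP (-0.036), IFI35 (-0.049), TMEM173 (-0.092), ERAP1 (0.17), TAP1 (-0.26), SP100 (0.069), OAS3 (-0.078), IRF3 (-0.48), IFITM2 (-0.11), PML (-0.17) and IRF1 (-0.086), of which TAP1 and IRF3 passed the test. Another 6 (TYK2, LGALS3BP, HLA-E, HLA-F, STAT2 and ISG20) kept their sign and did not pass. Signs are taken against 0, while the median of all genes was then -0.30. With the trend removed, 6 members were higher, 13 lower and 0 lower past the fold-change cutoff, where none of JAK2, IFIT2 and IFIT3 reached -1.5, and role medians were 0.11 (antigen presentation), -0.11 (antiviral) and -0.38 (signalling). These values were the same with the replicate block. Replicate numbers did not pair the libraries (correlations of deviations -0.03, -0.29 and -0.18), and no library correlated best with its own number. The replicate block alone took the call from IRF1 (adjusted p = 0.0549) and changed no other member.

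Past both cutoffs, quantile normalization gave 3 higher members and 1 lower, and median-of-ratios size factors 1 lower. A cutoff of 1 gave 6 higher and 7 lower, and a cutoff of 0.5 gave 16 and 12. Median-of-ratios size factors moved the role medians to 1.07, 0.51 and 0.031 in the order above, quantile normalization the last 2 of them to 0.50 and 0.021, and TMM that of signalling to -0.13. The cause was not tested. With each library left out, lower members past both cutoffs numbered 2 to 5, higher members at the adjusted p-value alone 20 to 22, and the medians ranged from 0.75 to 0.89, from 0.19 to 0.32 and from -0.24 to -0.18. IFITM2 also did not pass with library-size scaling (adjusted p = 0.0583) or without the mean-variance trend (adjusted p = 0.0739). On the recovered reads, edgeR and DESeq2 each called 10542 genes at the adjusted p-value, and both gave 22 higher and 13 lower members. The sum of IFITM2 and IFITM3 had a log2 fold change of 0.96. Counts of IFIH1 (at least 14 reads) limit its precision most, and 3 libraries per group limit that of all genes.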

Other observations

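Genes of the immunoproteasome, which cuts proteins into peptides for class I molecules, are described here after their values were seen. PSMB8 and PSMB9, catalytic subunits of this proteasome, and PSME1 and PSME2, subunits of its activator, were 1.73-fold, 1.67-fold, 1.65-fold and 1.77-fold higher in DU145-TFEB, without overlap of the groups. Their log2 values without the GC and length trend were 0.13, 0.70, 0.10 and 0.36, and those of PSMB9 (adjusted p = 1.52e-05) and PSME2 (adjusted p = 0.00149) passed. CANX, the chaperone calnexin that acts before calreticulin, was 1.65-fold lower, with a log2 value near 0 without the trend (adjusted p = 0.931).

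GBP2, a GTPase related to GBP1, was 2.23-fold higher, with a log2 value of 1.59 without the trend (adjusted p = 3.59e-06). GBP1, GBP2, IFIH1 and B2M, with a GC content of 42.8%, 44.4%, 43.3% and 40.6%, were higher both with and without the trend. They were picked after their values were seen. Other genes of like GC content were lower both with and without the trend. Among these were IFIT2 (42.8%), IFIT3 (44.3%), IFNAR1 (42.3%), PARP14 (42.4%) and DDX58 (40.5%). TLR3, the endosomal sensor of double-stranded RNA, was 3.16-fold lower, with 22.1, 18.2 and 18.7 normalized counts in DU145-TFEB and 52.9, 70.2 and 63 in DU145-vector, and a log2 value of -0.57 without the trend (adjusted p = 0.0374).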
